A study of Mus musculus with 11 samples.

Results

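The genes described here are 4 muscarinic acetylcholine receptor genes (Chrm1, Chrm2, Chrm3 and Chrm4), 3 nicotinic acetylcholine receptor subunit genes (Chrna4, Chrna7 and Chrnb2) and Ache, the gene of acetylcholinesterase. They were taken by gene symbol from a table of 17118 genes, as a family chosen with earlier results of these data known, and all 8 were present and passed the low-count filter. The study asks how a chemotherapy affects the gut, its microbes and cognition, and RNA was sequenced from 0.2 mm punches of the hippocampus of female mice labelled C57/BL6J. AC-T mice (5 libraries, mice 501, 502, 503, 600 and 602) were given 8 weekly intraperitoneal injections from the age of 12 weeks, 4 with both doxorubicin at 2 mg/kg and cyclophosphamide at 50 mg/kg, followed by 4 with paclitaxel at 5 mg/kg. Saline mice (6 libraries, mice 201, 202, 203, 300, 301 and 302) were given 8 injections of 0.9% saline on the same weekly schedule. All samples carry a 1-month label, and each library is a separate mouse. Doxorubicin is an anthracycline, cyclophosphamide an alkylating agent and paclitaxel a drug that stabilises microtubules, and in sequence they are used against breast cancer.

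Acetylcholine reaches the hippocampus mainly along axons from the medial septum and diagonal band, whose cell bodies lie outside the hippocampus, so most of the transmitter's own synthesis genes are transcribed elsewhere. It acts on muscarinic receptors, which signal through G proteins, and on nicotinic receptors, which are ion channels built from subunits, and acetylcholinesterase ends the signal by splitting the transmitter. The receptors measured here are made largely by the neurons of the sampled tissue, and cholinergic transmission in the hippocampus is known for its part in attention and memory.

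Of the 8 genes, Chrm3 rose and Chrna4 fell after AC-T, and the other 6 did not pass the test. The test was edgeR's quasi-likelihood F test with Benjamini-Hochberg adjustment over 15353 genes, and an adjusted p under 0.05 is called a change. Over all tested genes 8.47% were called, 4.89% higher and 3.58% lower, so 1 rise and 1 fall among 8 stand beside a background of 1301 calls. The median log2 fold change (AC-T minus saline) was -0.077 over the 8 genes and -0.003 over all tested genes. Its median size without sign was 0.36 over the 8 genes and 0.109 over all tested genes, and 7 of the 8 genes and 3829 of the 15353 had an unadjusted p under 0.05. Chrm3 was the 1 gene of the 8 whose AC-T and saline values did not overlap, which held for 7.52% of all tested genes in either direction.

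Library totals were between 23.4 and 32.1 M counts (M, mega). Mouse numbers begin with 5 or 6 in AC-T mice and with 2 or 3 in saline mice, which sets apart a pair of series in each treatment; the labels do not say what the digit stands for, and since no series holds both treatments, series and treatment cannot be told apart. Markers of the thalamus and habenula, which lie beside the hippocampus in coronal slices, were lower after AC-T in 13 of 15 genes tested (median log2 fold change -1.06), and their summed level was 682 to 1034 CPM in AC-T libraries and 1350 to 2046 CPM in saline libraries. CPM here is the normalised count, put on the same library size for every sample. Hippocampal markers were called in 1 of 12 genes (Mpped1, higher), with a median of -0.011. They moved in both directions, from -0.433 for C1ql2 to 1.221 for Nov, whose groups did not overlap. The median therefore does not show that these markers were steady. Although all mice are labelled female, Xist had a listed 0 in saline 300, against 13057 to 22963 counts in each other library; whether that library is of another mouse or the value is a failed estimate cannot be told apart here.

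Per length of the longest transcript, Chrm1 had the highest mean level of the 8 mRNAs and Chrm2 the lowest in both treatments. Levels were divided by the longest annotated transcript of each gene (GENCODE M21) to compare genes. In AC-T libraries the mean level per length was 28.5 ± 2.67 CPM per kilobase for Chrm1, 14.0 ± 1.00 for Ache, 12.4 ± 1.32 for Chrm3, 9.06 ± 0.70 for Chrnb2, 7.68 ± 0.78 for Chrna4, 4.41 ± 0.66 for Chrm4, 4.26 ± 0.47 for Chrna7 and 2.10 ± 0.39 for Chrm2 (SD, n = 5). The mean ± SD intervals of Ache and Chrm3 overlapped, as did those of Chrnb2 and Chrna4 and those of Chrm4 and Chrna7. In saline libraries the level per length was 21.9 ± 3.63 CPM per kilobase for Chrm1, 17.9 ± 2.95 for Ache, 10.5 ± 0.75 for Chrnb2, 9.57 ± 0.95 for Chrna4, 8.42 ± 1.58 for Chrm3, 4.09 ± 0.41 for Chrna7, 3.23 ± 0.79 for Chrm4 and 2.71 ± 0.52 for Chrm2 (SD, n = 6). Those of Chrm1 and Ache overlapped, as did those of Chrnb2 and Chrna4, of Chrnb2 and Chrm3, of Chrna4 and Chrm3, of Chrna7 and Chrm4, and of Chrm4 and Chrm2. By its mean, Chrm3 stood in place 3 after AC-T and in place 5 after saline. The order depends on the length chosen: divided by the median transcript length instead, the order in both treatments began with Ache, then Chrna4, then Chrm1. Chrm3 was then in place 4 in both. In saline libraries Chrm4 was then the lowest and Chrm2 stood in place 6.

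The start regions of the genes differ in their base composition. RefSeq promoter windows (build GRCm38.p6, 250 bases before to 50 after the start of the gene) were at hand for 7 of the 8 genes, all but Chrm1. Shown are those of the genes that passed the test, Chrm3 and Chrna4, with that of Chrnb2, the partner subunit of Chrna4, and that of Ache. Capitals mark the letters GGGCGG on either strand, the core of the GC box that Sp1-type factors are known to bind.
Chrm3: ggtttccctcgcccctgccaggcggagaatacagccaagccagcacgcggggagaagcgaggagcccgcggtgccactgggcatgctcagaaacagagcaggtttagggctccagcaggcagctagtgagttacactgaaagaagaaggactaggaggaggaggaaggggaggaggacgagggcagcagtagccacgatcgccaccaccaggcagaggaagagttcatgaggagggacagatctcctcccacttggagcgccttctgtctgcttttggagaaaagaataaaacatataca
Chrna4: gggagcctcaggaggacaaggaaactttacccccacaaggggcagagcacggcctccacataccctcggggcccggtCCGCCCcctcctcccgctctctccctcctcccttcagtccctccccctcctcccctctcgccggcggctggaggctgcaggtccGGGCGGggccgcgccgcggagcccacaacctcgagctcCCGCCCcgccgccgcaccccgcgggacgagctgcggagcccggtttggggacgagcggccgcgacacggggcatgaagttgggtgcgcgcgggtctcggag
Chrnb2: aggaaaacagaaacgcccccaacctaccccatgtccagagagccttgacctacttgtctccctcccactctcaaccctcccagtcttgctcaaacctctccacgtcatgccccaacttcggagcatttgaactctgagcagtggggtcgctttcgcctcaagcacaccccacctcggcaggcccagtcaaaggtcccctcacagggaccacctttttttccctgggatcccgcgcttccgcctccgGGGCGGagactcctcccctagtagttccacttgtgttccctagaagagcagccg
Ache: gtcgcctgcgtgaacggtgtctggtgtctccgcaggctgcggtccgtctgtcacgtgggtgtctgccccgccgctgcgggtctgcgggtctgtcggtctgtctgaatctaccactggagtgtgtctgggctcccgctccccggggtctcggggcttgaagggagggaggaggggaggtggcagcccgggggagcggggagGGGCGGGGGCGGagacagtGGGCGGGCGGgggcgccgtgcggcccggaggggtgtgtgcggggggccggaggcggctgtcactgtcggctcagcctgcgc
The Chrm3 window (chr13:10360754-10361053, minus strand) was 57.3% G or C and held none of these letters. The Chrna4 window (chr2:181039128-181039427, minus strand) was 74.3% G or C with 3 matches, the Chrnb2 window (chr3:89764583-89764882, minus strand) 59.0% with 1, and the Ache window (chr5:137288004-137288303, plus strand) 74.0% with 4. The end of the Ache window was not found in any GENCODE M21 transcript of Ache, whereas those of Chrm3, Chrna4 and Chrnb2 were found in transcripts of their genes. The windows not shown were 52.7% G or C with 1 match for Chrm2, 70.7% with 4 for Chrm4 and 70.0% with 1 for Chrna7. The end of the Chrm4 window was likewise not found in a GENCODE M21 transcript of Chrm4. GGGCGG was present in 6 of the 7 windows and in 35.7% of 32851 windows of that length, whose median was 52.7% G or C. The letters GCGTGGGCG or GCGGGGGCG, which EGR factors are known to bind, were found in Ache (2 matches, overlapping the GC boxes) and in Chrna7 and in 3.47% of all windows. TGACGTCA, the CREB site, was in none of the 7 and in 1.79% of all windows, and TATAAA was in none of the 7 and in 13.6% of all windows. These matches describe the letters of the windows and are no evidence that a factor binds there.

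Chrm1 and Chrm3 encode the M1 and M3 receptors, which couple to Gq and phospholipase C and raise the excitability of neurons. Chrm3 (ENSMUSG00000046159) was at 53.6, 53.7, 44.9, 59.2 and 58.7 CPM in AC-T 501, 502, 503, 600 and 602, against 33.0, 28.1, 30.5, 41.0, 42.2 and 44.4 CPM in saline 201, 202, 203, 300, 301 and 302. Every AC-T library was above every saline library, but the lowest AC-T value (44.87 CPM in 503) and the highest saline value (44.36 CPM in 302) nearly met. The mean was 54.0 ± 5.74 CPM after AC-T (SD, n = 5) and 36.5 ± 6.83 CPM after saline (SD, n = 6), a log2 fold change of 0.56 ± 0.12 (SE) or 1.48-fold, with edgeR adjusted p = 0.0198. Without AC-T 602 the adjusted p was 0.0531, and it stayed under 0.05 with each of the other 10 libraries left out.

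Chrm1 (ENSMUSG00000032773), the main muscarinic receptor of hippocampal pyramidal neurons, was at 171.5, 198.8, 154.7, 188.1 and 181.1 CPM in the AC-T libraries in the same order, against 136.2, 103.0, 126.4, 132.2, 160.9 and 164.0 CPM in the saline libraries. AC-T 503 lay below saline 301 and 302, so the groups overlapped. The means were 178.8 ± 16.7 CPM after AC-T and 137.1 ± 22.8 CPM after saline (SD, n = 5 and 6), a log2 fold change of 0.38 ± 0.11 (SE) with edgeR adjusted p = 0.0553. It passed the threshold without saline 301 (adjusted p = 0.0457) and without saline 302 (adjusted p = 0.0335), and not with any of the other 9 libraries left out.

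Chrm2 and Chrm4 encode the M2 and M4 receptors, which couple to Gi and Go, lower cyclic AMP and, on nerve endings, reduce transmitter release. Chrm2 (ENSMUSG00000045613) was at 9.08, 13.1, 12.5, 10.4 and 14.7 CPM in the AC-T libraries, against 16.4, 17.3, 19.4, 13.6, 14.4 and 11.04 CPM in the saline libraries. All 3 saline libraries of series 2 were above every AC-T library, and those of series 3 lay among the AC-T values. The log2 fold change was -0.36 ± 0.15 (SE) with edgeR adjusted p = 0.164. Chrm4 (ENSMUSG00000040495) was at 4.77, 6.89, 7.25, 6.52 and 6.35 CPM in the AC-T libraries, against 3.13, 4.78, 6.23, 3.74, 5.56 and 4.42 CPM in the saline libraries. Here 4 AC-T libraries were above all saline libraries and AC-T 501 was among them. The log2 fold change was 0.45 ± 0.17 (SE) with edgeR adjusted p = 0.126, on counts as low as 74 in saline 201.

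**Figure D1:**
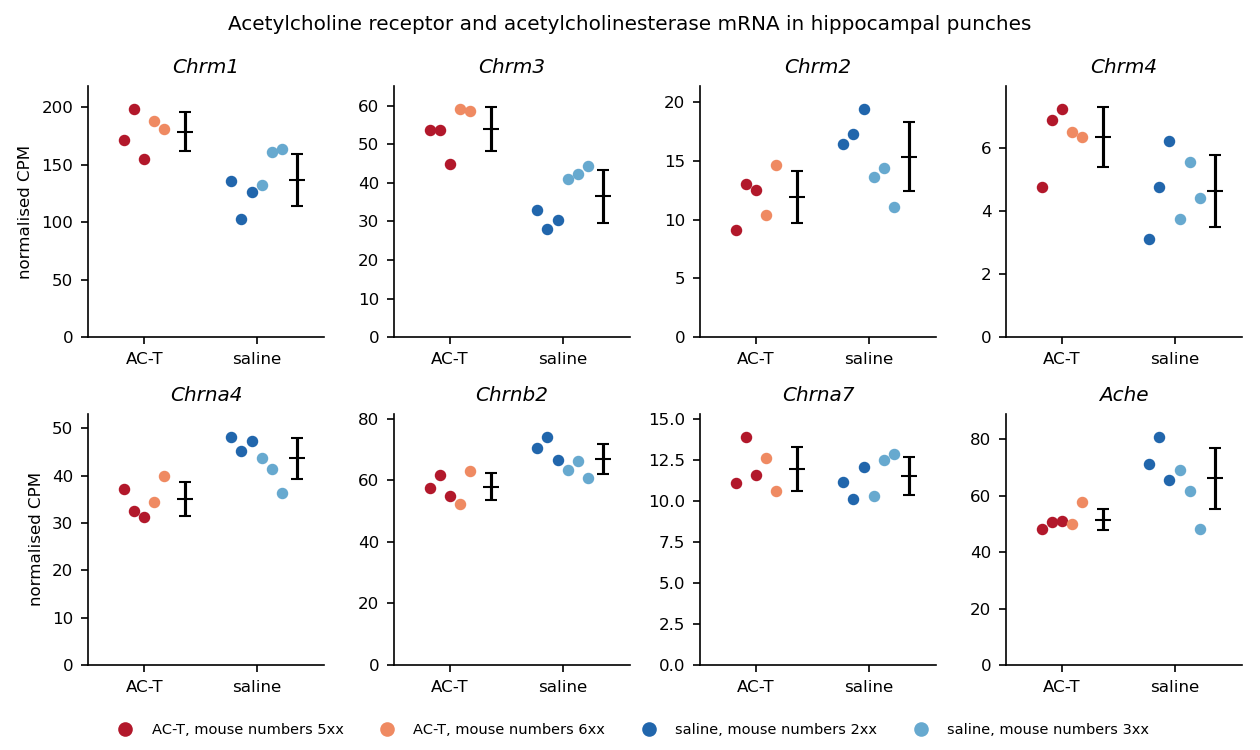
Normalised CPM (vertical axes, each from 0) of the 8 genes in the 5 AC-T libraries and, to their right, the 6 saline libraries; each point is 1 mouse, coloured by the series of its number, and bars give the mean ± SD. Chrm3 is the 1 gene whose groups do not overlap (AC-T from 44.87 CPM upward, saline up to 44.36 CPM). The saline 2 series lies farther on average from the AC-T values than the saline 3 series for every gene but Chrm4, and only slightly so for Chrna7.

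The 4 muscarinic mRNAs together were at 251.1 ± 21.6 CPM after AC-T and 193.7 ± 26.7 CPM after saline (SD, n = 5 and 6). Chrm2 took 4.77 ± 0.90% of that sum in AC-T libraries and 8.19 ± 2.47% in saline libraries. Chrm3 took 21.5 ± 1.31% in AC-T libraries and 18.8 ± 1.71% in saline libraries, and Chrm1 took 71.2 ± 1.32% in AC-T libraries and 70.6 ± 2.30% in saline libraries. These are shares of counts, in which a longer transcript weighs more. The log2 ratio of Chrm1 to Chrm2 was 3.92 ± 0.29 after AC-T and 3.16 ± 0.49 after saline, a difference of 0.76 with 2-sided exact permutation p = 0.0173 and adjusted p = 0.0693 over the 4 ratios compared, which fails the threshold. The log2 ratio of Chrm3 to Chrm4 was 3.09 ± 0.32 after AC-T and 2.99 ± 0.48 after saline, a difference of 0.10 (exact permutation p = 0.701). The smallest p this exact permutation test can give is 0.00433.

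Chrna4 and Chrnb2 encode the alpha4 and beta2 subunits, which join into the main high-affinity nicotine-binding receptor of the brain. Chrna4 (ENSMUSG00000027577) was at 37.3, 32.6, 31.2, 34.4 and 39.98 CPM in the AC-T libraries, against 48.2, 45.1, 47.3, 43.7, 41.3 and 36.4 CPM in the saline libraries. AC-T 501 and 602 were above saline 302 and no other saline library was reached. The mean was 35.1 ± 3.56 CPM after AC-T (SD, n = 5) and 43.7 ± 4.36 CPM after saline (SD, n = 6), a log2 fold change of -0.32 ± 0.08 (SE) or 0.804-fold, with edgeR adjusted p = 0.0378. The call held in 2 of the 11 fits that each left out 1 library (without AC-T 602 and without saline 302), and in the other 9 the adjusted p was between 0.0510 and 0.1002. It was also lost with series as a random effect in limma-voom (log2 fold change -0.31, adjusted p = 0.126) and with library totals as the scaling (-0.34, edgeR adjusted p = 0.0536).

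Chrnb2 (ENSMUSG00000027950) was at 57.4, 61.8, 55.0, 52.4 and 63.1 CPM in the AC-T libraries, against 70.4, 74.2, 66.7, 63.3, 66.3 and 60.8 CPM in the saline libraries. AC-T 502 and 602 were above saline 302, and all other AC-T values were below all saline values. The log2 fold change was -0.21 ± 0.06 (SE) with edgeR adjusted p = 0.0633. Chrnb2 overlaps Adar on the other strand, and although the libraries were stranded the setting used in counting is not given in the sources used here; Adar was at 173.5 ± 11.01 CPM after AC-T and 165.1 ± 18.6 CPM after saline (SD, n = 5 and 6), with a log2 fold change of 0.07 ± 0.08 (SE) and edgeR adjusted p = 0.624. The log2 ratio of Chrna4 to Chrnb2 was -0.73 ± 0.14 after AC-T and -0.62 ± 0.11 after saline, a difference of -0.11 with exact permutation p = 0.182 (adjusted p = 0.242).

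Chrna7 (ENSMUSG00000030525) encodes the alpha7 subunit, which forms a receptor of its own that lets calcium through, and it had the smallest fold change of the 8. Its level was 11.1, 13.9, 11.6, 12.6 and 10.6 CPM in the AC-T libraries, against 11.2, 10.1, 12.1, 10.3, 12.5 and 12.9 CPM in the saline libraries. The groups covered nearly the same range, with the highest value in AC-T 502 and the lowest in saline 202. The log2 fold change was 0.055 ± 0.087 (SE) with edgeR adjusted p = 0.756. The log2 ratio of Chrna7 to Chrna4 was -1.55 ± 0.28 after AC-T and -1.92 ± 0.26 after saline, a difference of 0.37 with exact permutation p = 0.0519 (adjusted p = 0.104).

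Ache (ENSMUSG00000023328), whose enzyme clears acetylcholine from the synapse, was at 48.1, 50.6, 51.2, 50.1 and 57.8 CPM in the AC-T libraries, against 71.1, 81.0, 65.4, 69.2, 61.7 and 48.3 CPM in the saline libraries. Saline 302 lay among the AC-T values, at 48.3 CPM, and the other 5 saline libraries were above all AC-T libraries. The mean was 51.6 ± 3.71 CPM after AC-T (SD, n = 5) and 66.1 ± 10.9 CPM after saline (SD, n = 6), a log2 fold change of -0.36 ± 0.11 (SE) with edgeR adjusted p = 0.0626. Without saline 302 the log2 fold change was -0.43 and the adjusted p 0.00986. With any other library left out the adjusted p was between 0.0742 and 0.135.

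The differences were also taken against each saline series. Chrm3 averaged 54.0 CPM in AC-T libraries, 30.5 CPM in the saline 2 series and 42.5 CPM in the saline 3 series (n = 5, 3 and 3). In a model with a mean for each series, AC-T exceeded saline 2 by 0.84 ± 0.07 on the log2 scale (edgeR adjusted p = 0.000371) and saline 3 by 0.36 ± 0.07 (adjusted p = 0.0247), and saline 3 exceeded saline 2 by 0.48 ± 0.08 (adjusted p = 0.0366). A fit without the saline 2 libraries gave adjusted p = 0.0701 for AC-T against saline 3. The AC-T series differed by 0.22 ± 0.09 (series 6 minus series 5, adjusted p = 0.318).

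Against saline 2, 6 of the 8 genes were called: Chrm1 (log2 difference 0.56) and Chrm3 higher, and Chrm2 (-0.56), Chrna4 (-0.41), Chrnb2 (-0.28) and Ache (-0.48) lower, where 11.4% of all tested genes were called. Against saline 3 the call was made for Chrm3 alone, where 7.25% of all tested genes were called, and the differences of the other 7 were 0.24 for Chrm1, -0.11 for Chrm2, 0.48 for Chrm4, -0.19 for Chrna4, -0.13 for Chrnb2, -0.002 for Chrna7 and -0.20 for Ache. Against saline 2 the Chrm4 difference was 0.43 and that of Chrna7 0.098, neither past the threshold. Both contrasts share the AC-T libraries. Between saline 3 and saline 2, Chrm3 was the 1 gene of the 8 called (1.03% of all tested genes), with differences of 0.32 for Chrm1, -0.45 for Chrm2, -0.21 for Chrna4 and -0.28 for Ache that did not pass. Between AC-T 6 and AC-T 5 none of the 8 was called by edgeR, 1 had an unadjusted p under 0.05 (Chrm3), and 0.117% of all tested genes were called. Chrm4 averaged 6.36 CPM in AC-T libraries, 4.71 CPM in saline 2 and 4.57 CPM in saline 3, and it had no call in any of the 4 contrasts.

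**Figure D2:**
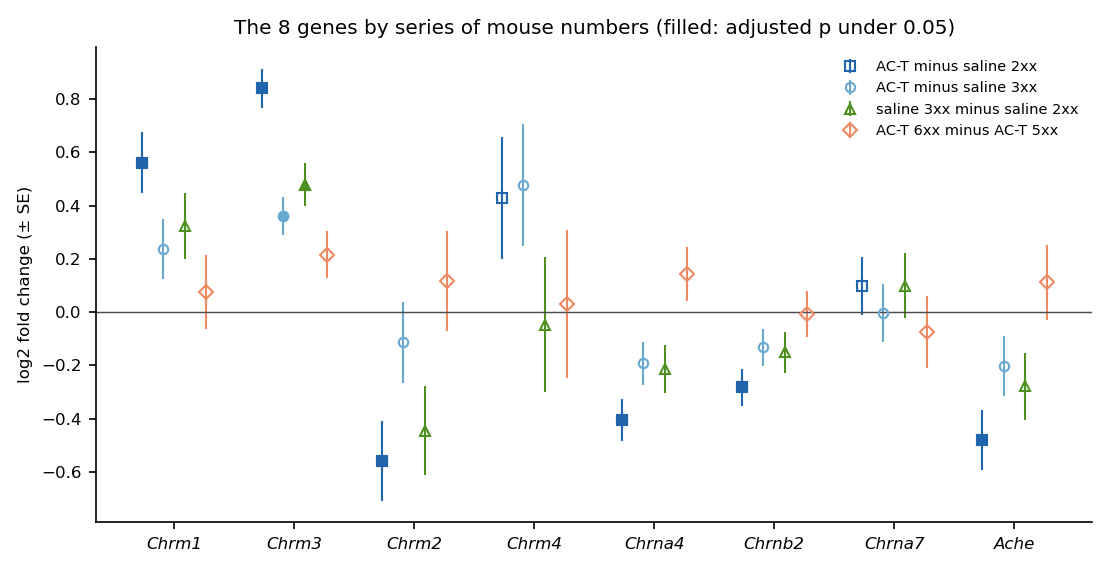
Log2 fold changes ± SE (vertical axis) of the 8 genes for AC-T minus saline 2, AC-T minus saline 3, saline 3 minus saline 2 and AC-T 6 minus AC-T 5; filled symbols have an edgeR adjusted p under 0.05. AC-T minus saline 2 has 6 filled symbols, AC-T minus saline 3 and saline 3 minus saline 2 have 1 each (Chrm3), and the contrast within AC-T has none.

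The levels were set beside the amount of thalamic marker RNA in the same punch. The thalamic score, the mean log2 CPM of the 15 markers, was 5.36, 4.67, 4.88, 4.52 and 5.11 in the AC-T libraries and 6.51, 6.23, 6.25, 5.81, 5.82 and 5.67 in the saline libraries, without overlap. Chrm3 was highest in AC-T 600 (59.2 CPM), which had the lowest score, and between 28.1 and 33.0 CPM in the 3 saline libraries with a score above 6. Chrm2, Chrna4 and Chrnb2 were highest in those same 3 saline libraries, and saline 302, with the lowest score among saline libraries, had the lowest saline value of Chrm2, Chrna4, Chrnb2 and Ache and the highest saline value of Chrm1 and Chrm3. Within the AC-T libraries the order was mixed. AC-T 501, with the highest score among them, had their lowest Chrm2 and Ache values. Chrm3 was lowest in AC-T 503 (score 4.88) and at 58.7 CPM in AC-T 602 (score 5.11). Chrna4 was highest in AC-T 602 (39.98 CPM) and AC-T 501 (37.25 CPM), which had the highest AC-T scores. With the score as a covariate the log2 difference between AC-T and saline was 0.12 ± 0.22 (SE) for Chrm3, 0.02 ± 0.21 for Chrm1, 0.07 ± 0.38 for Chrm4, 0.06 ± 0.33 for Chrm2, 0.07 ± 0.13 for Chrna4, 0.01 ± 0.12 for Chrnb2, -0.02 ± 0.22 for Ache and -0.25 ± 0.16 for Chrna7. By edgeR 0 of the 8 genes were then called and 0 had an unadjusted p under 0.05, against 1 gene called and 1124 with an unadjusted p under 0.05 in the whole table. Of the 15 markers in the score, 13 were called lower after AC-T in these same libraries, and they were chosen with earlier results known. Because the score does not overlap between the groups, treatment and the amount of thalamic marker RNA cannot be told apart in these libraries. The loss of calls in the fit with the score therefore decides nothing between them. The errors of that fit are also wider: the SE for Chrm3 was 0.22, against 0.12 without the score.

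**Figure D3:**
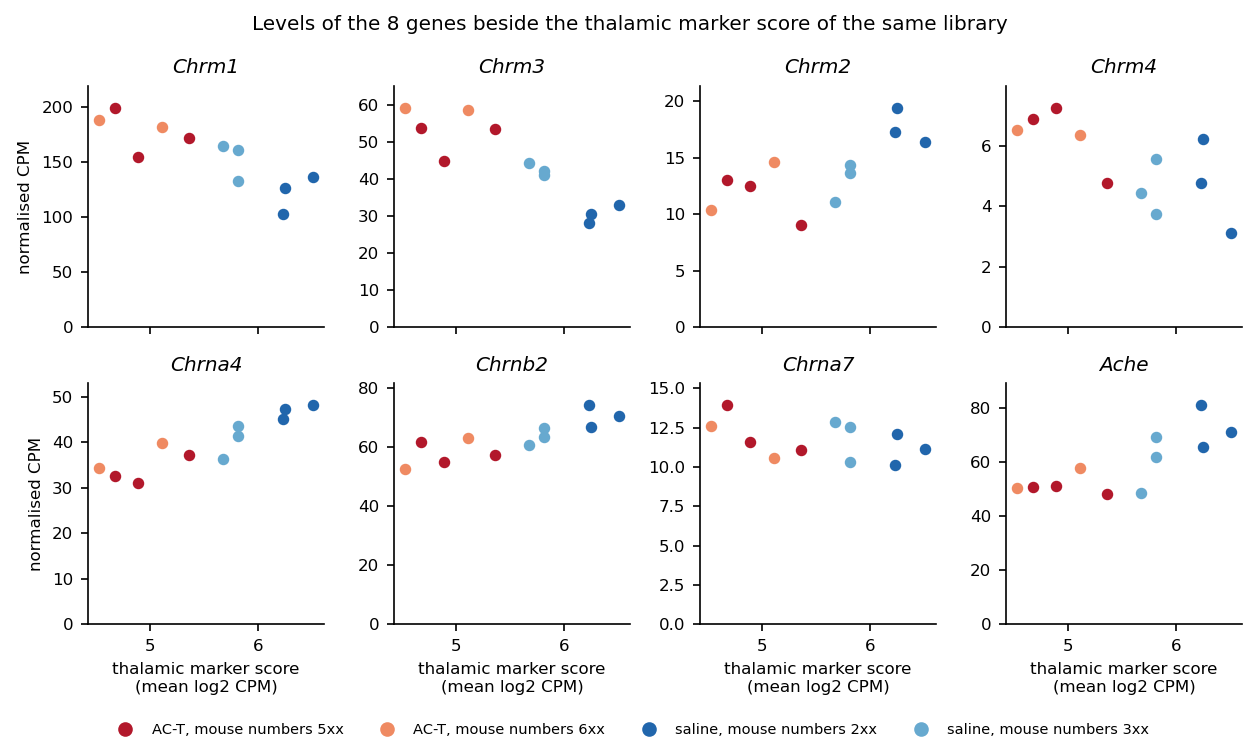
Normalised CPM of the 8 genes (vertical axes, each from 0) plotted against the thalamic marker score of the same library (horizontal axes, mean log2 CPM of 15 genes), with 1 point per mouse coloured by treatment and series of mouse numbers. AC-T libraries occupy scores of 4.52 to 5.36 and saline libraries 5.67 to 6.51; the 3 saline libraries with a score above 6 have the lowest Chrm3 values and the highest Chrna4 values.

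Other cell types and regions whose RNA could be in the punch were looked at through markers. Neocortical markers were called higher in 3 of 8 genes (Tbr1, Fezf2 and Lamp5) and lower in 1 (Rorb), with a summed level of 358.7 to 392.7 CPM in AC-T libraries and 267.8 to 338.0 CPM in saline libraries. Interneuron markers were higher in 3 of 8 (Sst, Npy and Lhx6) and lower in 2 (Pvalb and Calb2). Striatal markers, of interest because Chrm4 is abundant in striatal neurons, were called in 0 of 6 genes by edgeR; their summed level was 87.3 to 294.5 CPM in AC-T libraries and 73.7 to 180.1 CPM in saline libraries. Astrocyte markers were called lower in 1 of 4 genes (Aqp4) and endothelial markers in 1 of 3 (Pecam1). Oligodendrocyte, microglial, blood and choroid plexus markers were called in 0 genes by edgeR. The summed choroid plexus level was 75.55 to 5337 CPM in AC-T libraries and 16.08 to 5441 CPM in saline libraries. In bulk tissue, fewer cells of a type and less RNA per cell cannot be told apart, and the part of these markers in the receptor values was not tested.

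Transcripts that mark cholinergic neurons themselves were listed at low values or at 0. Slc5a7, the choline transporter of cholinergic terminals, had a listed value of 0 in every AC-T library and in saline 201, 300, 301 and 302. It was at 3.13 and 4.83 CPM in saline 202 and 203. Isl1, a transcription factor of these neurons, had a listed 0 in every AC-T library and in saline 203, 300 and 302. In saline 201, 202 and 301 it was at 2.75, 1.74 and 1.80 CPM. Slc5a7 and Isl1 did not pass the low-count filter, so a difference between the treatments was not tested. Chat, which makes acetylcholine, and Slc18a3, which loads it into vesicles, were not analysed here. A listed 0 cannot be read as a count of 0: among 2828 genes at 0 in some libraries, the lowest value above 0 had a median of 23 counts, and how the table came to hold these zeros is not given in the sources used here.

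Of 14 other receptor subunit genes 6 were in the table and 1, Chrna5, passed the low-count filter. Chrna5, an accessory subunit that joins alpha4 and beta2, was at 5.06, 4.05, 2.63, 4.58 and 4.25 CPM in the AC-T libraries, against 0, 0, 1.98, 2.66, 2.35 and 3.34 CPM in the saline libraries, with saline 201 and 202 listed at 0. Its edgeR adjusted p was 0.419 and no fold change is given. Chrna3 and Chrnb4, which pair in habenular and autonomic neurons, were listed at 0 in every AC-T library and reached 7.31 and 5.94 CPM in saline 300. Chrna3 was also at 2.01 CPM in saline 203, and in all remaining saline libraries both were listed at 0. Chrna2 was not analysed here.

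Of 26 further cholinergic genes tested, 5 were higher and 1 was lower after AC-T, with a median log2 fold change of 0.111. These 6 calls are 3 G-protein alpha subunits (Gnaq, Gnai1 and Gnao1), 2 phospholipases (Plcb1 and Plcb4) and 1 potassium channel subunit (Kcnq5), and they stand beside the background of 8.47% given above. In the Gq arm 3 of 8 genes were higher and 1 lower, in the Gi and Go arm 2 of 7 were higher, and 0 of 3 genes for choline uptake and acetylcholine breakdown and 0 of 7 chaperones and modulators of nicotinic receptors were called by edgeR.

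Plcb1, the phospholipase C isoform prominent in hippocampal and cortical neurons, was at 166.8, 191.4, 172.7, 169.2 and 178.4 CPM in the AC-T libraries, against 130.1, 100.4, 121.0, 108.6, 130.1 and 130.8 CPM in the saline libraries. The groups did not overlap, and the log2 fold change was 0.55 ± 0.07 (SE) with edgeR adjusted p = 0.00248. Plcb4, an isoform abundant in the thalamus and cerebellum, went the other way, at 68.4, 53.0, 55.5, 62.9 and 78.8 CPM in the AC-T libraries, against 138.7, 128.2, 126.3, 82.0, 90.7 and 84.6 CPM in the saline libraries. Its groups did not overlap either, and the log2 fold change was -0.77 ± 0.16 (SE) with edgeR adjusted p = 0.0175. The saline 2 series was highest for Plcb4.

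Gnaq, the Gq alpha subunit, was 209.8 to 244.9 CPM after AC-T and 171.2 to 210.5 CPM after saline, a log2 fold change of 0.26 ± 0.06 (SE, edgeR adjusted p = 0.0259). Kcnq5, an M-current channel subunit that M1 receptor signalling closes, was 44.6 to 73.2 CPM after AC-T and 32.1 to 47.5 CPM after saline, a log2 fold change of 0.58 ± 0.14 (adjusted p = 0.0285). Gnai1 and Gnao1, alpha subunits through which M2 and M4 receptors act, did not overlap between the groups. Gnai1 was 159.8 to 200.7 CPM after AC-T and 126.9 to 152.9 CPM after saline (log2 fold change 0.35 ± 0.07, adjusted p = 0.0117), and Gnao1 was 553.1 to 588.1 CPM after AC-T and 466.5 to 503.9 CPM after saline (0.22 ± 0.04, adjusted p = 0.00741). All of these proteins also serve many other receptors. With series as a random effect 4 of the 6 calls remained (Gnai1, Gnao1, Plcb1 and Plcb4) and those of Gnaq and Kcnq5 were lost, and with the thalamic score as a covariate 0 of the 26 genes were called by edgeR and 3 had an unadjusted p under 0.05. Lypd6, a modulator of nicotinic receptors, missed the threshold narrowly (log2 fold change 0.33 ± 0.09, adjusted p = 0.0503), although its groups did not overlap.

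**Figure D4:**
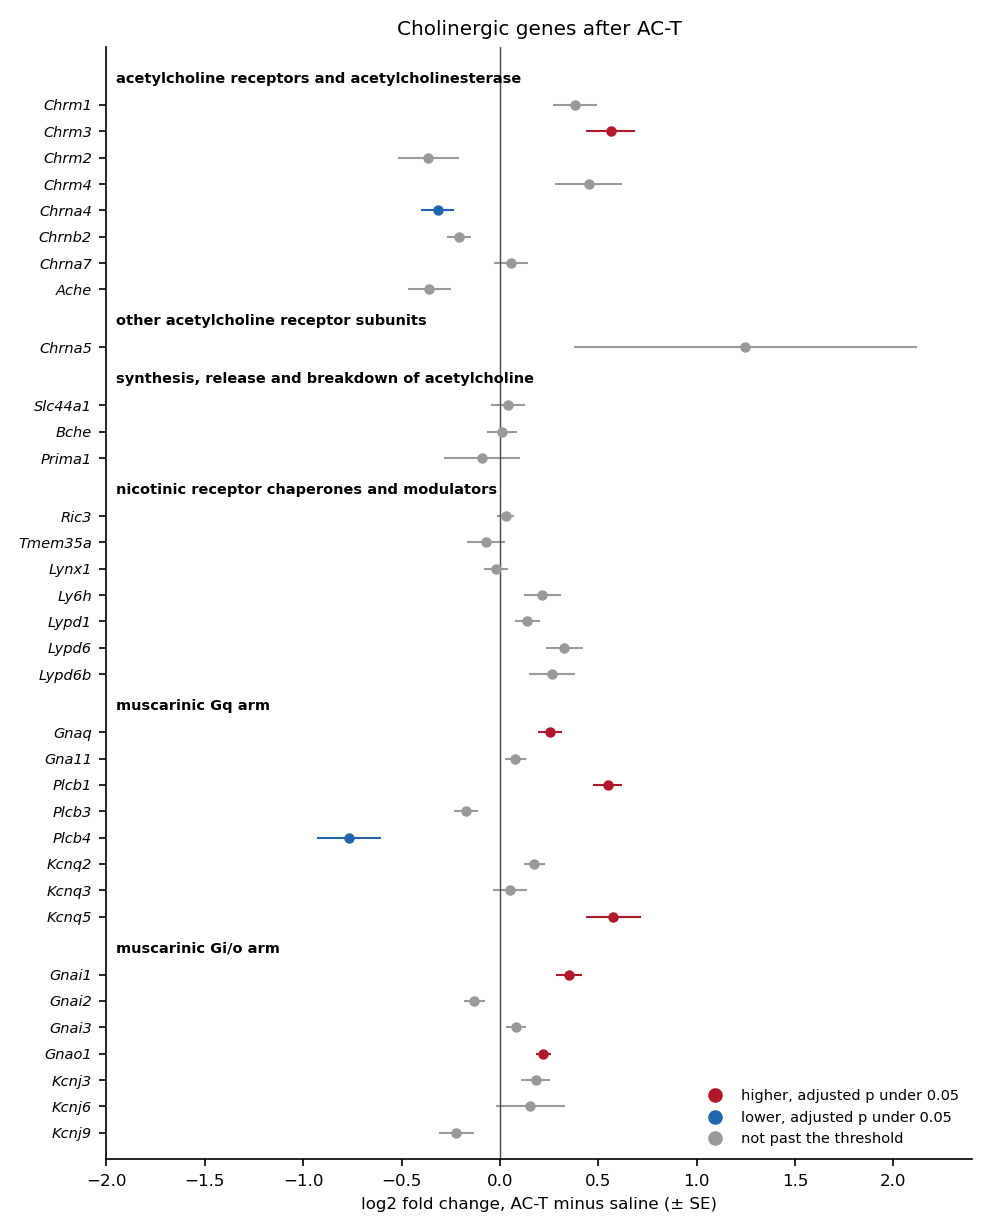
Log2 fold changes (AC-T minus saline, horizontal axis, ± SE) of the 8 genes and of 26 other tested cholinergic genes, grouped by role; red is higher and blue lower with edgeR adjusted p under 0.05, and grey did not pass. Coloured points are Chrm3 and Chrna4 among the 8 genes and Gnaq, Plcb1, Plcb4, Kcnq5, Gnai1 and Gnao1 among the others; the Chrna5 value depends on libraries listed at 0.

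The 8 genes fell apart into profiles across the 11 libraries. Likeness was measured as the root mean square difference, over the 11 libraries, between standardised log2 CPM profiles, in units of SD. It is a description that takes in the difference between treatments. Chrm1 and Chrm3 were the closest pair of the 8 (0.354), followed by Chrnb2 and Ache (0.517), Chrna4 and Ache (0.521) and Chrm2 and Ache (0.577), and Chrm1 and Ache were the farthest apart (1.84). Each of the 8 was also compared with 12551 genes. The nearest profiles to Chrm3 were Plk2 (0.116), Skil (0.194) and Matn2 (0.208), and those nearest to Chrm1 were Nckap1 (0.162), Sort1 (0.175) and Cnksr2 (0.193). Plk2, an activity-induced kinase of synapses, was at 143.1 ± 16.4 CPM after AC-T and 90.0 ± 21.2 CPM after saline (SD, n = 5 and 6).

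The nearest profiles to Chrna4 were Fam109a (0.230), Grin2d (0.301) and Tmem163 (0.304), those to Chrnb2 were Cox5a (0.320), Lrrc8a (0.341) and Aspscr1 (0.365), and those to Ache were Hexim2 (0.277), Adcy7 (0.288) and Kcnip1 (0.294). For Chrm2 they were Kcna2 (0.284), Peg3 (0.309) and Tmem186 (0.344), and for Chrm4 Efnb2 (0.308), Npas2 (0.326) and Ptprt (0.339). Chrna7 had the least close neighbours, Nudt21 (0.392), Zfp111 (0.396) and Bola1 (0.494). Grin2d, an NMDA receptor subunit found in interneurons and the thalamus, was at 14.4 ± 1.48 CPM after AC-T and 23.4 ± 4.42 CPM after saline (SD, n = 5 and 6).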

How the data were processed

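Polyadenylated RNA of hippocampal punches was made into stranded libraries, 5 AC-T and 6 saline. The series gives 6 samples per treatment, and 1 AC-T sample is not analysed here. Per the labels and the submitters' processing notes, base calls were converted with Dragen 4.3.6, read quality was checked with FastQC 0.11.9 and transcripts were quantified with Salmon 1.9.0 on build GRCm39, which divides a read shared by similar genes among them. The values deposited by the authors are expected counts (13.7% to 14.7% of the values in a library have a fraction) and were rounded to whole numbers here. The annotation release, the strand setting and the selection of the genes in the table are not given in the sources used here.

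Counts were tested with edgeR 4.0.16 in R 4.3.3 (2-sided quasi-likelihood F test; TMM scaling; low counts removed by filterByExpr at its minimum of 10) over 15353 genes, with Benjamini-Hochberg adjustment; an SE is the size of the log2 fold change divided by the root of F. CPM are normalised counts, with SD over mice. The thalamic score uses a prior count of 2. Ratios, with 0.5 added to each count, were compared by an exact permutation test over the 462 assignments of libraries to groups. The scripts were tested on simulated data. No 2 libraries of a group agreed within sampling noise (chi-square per degree of freedom of at least 11.3).

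The members, lists and tests were chosen with earlier results of these data known. Named are all 8 genes; of the other cholinergic genes, those past the threshold and the genes that define a cholinergic neuron or are partner subunits; and per gene the 3 nearest profiles with a mean log2 CPM of at least 1. Lypd6 and the cell markers were named after their values were seen. Alternatives were other scaling factors and filters, a robust dispersion, DESeq2 1.42.0, limma-voom (limma 3.58.1), the thalamic score as covariate, series as a random effect, other thresholds, unrounded values, and omission of each library and series. The annotation used is of GRCm38, so no gene positions in GRCm39 are printed; promoter windows and transcript lengths come from RefSeq and GENCODE M21 of that older build.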

Additional observations from a re-analysis of the deposited data

Results flagged for a closer look

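Among the 44 groups of values examined for a library far from the rest of its group, 2 were flagged. Both flags were in saline 300 and both were of receptor subunit genes outside the 8. A group with 1 value above 0 shows such a gap whatever that value is. The flagged groups were mostly listed at 0, so the share flagged cannot be compared with a chance rate of about 1 in 20. Chrna3 was at 7.31 CPM in saline 300, with 2.01 CPM in saline 203 and a listed 0 in the other 4 saline libraries and in all AC-T libraries. Chrnb4 was at 5.94 CPM in saline 300 and listed at 0 in every other library. Not among the flagged genes, Chrna6 was at 2.065 CPM in AC-T 602 alone and Chrnb3 at 3.635 CPM in saline 300 alone. Other medial habenular genes were high in the same library: Gpr151 was at 18.8 CPM and Pou4f1 at 6.23 CPM in saline 300, both listed at 0 in all 10 other libraries, and Tac2 was at 17.3 CPM there and between 0.423 and 2.26 CPM elsewhere. Saline 300 is also the library in which Xist was listed at 0. Without it the adjusted p of Chrm3 was 0.0295 and that of Chrna4 0.0644.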

How the results depend on the processing

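The direction of all 8 genes was the same under every scaling, filter, threshold and tool tried. It reversed with the thalamic score as covariate for Chrm2 (0.06), Chrna4 (0.068), Chrna7 (-0.25) and Chrnb2 (0.012), and without AC-T 502 for Chrna7 (-0.005). As reported, 2 of the 8 genes, 6 further cholinergic genes and 1301 genes in all were called. Of the 8, 5 were called by DESeq2, 5 among genes above 0 in all libraries, 5 at an adjusted p under 0.10, 6 against the saline 2 series, 1 with library totals as scaling, 1 (Chrm3) with series as a random effect, and 0 at an adjusted p under 0.01, with the thalamic score, against the saline 3 series, with AC-T 5 or with AC-T 6. With 1 library left out, 1 to 5 were called (5 without saline 302). In the fit against saline 3 mice without those of saline 2, Chrm3 had a log2 fold change of 0.35 and adjusted p = 0.0701, whereas the fit to all libraries called it; 3 of the 8 genes had an unadjusted p under 0.05 there, 6 with AC-T 5 and 3 with AC-T 6. The other cholinergic calls were 4 with series as a random effect, 0 with the thalamic score, 2 against saline 3, 3 with AC-T 5, 1 with AC-T 6, 2 at an adjusted p under 0.01, and 3 to 8 with 1 library left out (3 without AC-T 502). Calls in the whole table were 2566 by DESeq2, 1 with the thalamic score, 293 with series as a random effect, 549 against saline 3, 409 with AC-T 5, 317 with AC-T 6, 228 and 2295 at thresholds of 0.01 and 0.10, and 625 to 1229 with 1 library left out (lowest at 625 where AC-T 502 was omitted; 681 for AC-T 602, 815 for saline 202, 832 for saline 300). Of them 751 were higher and 550 lower (57.7% higher), against 47.2% higher with upper-quartile factors and 47.1% with library totals. The log2 ratio of Chrm3 to Chrm4 reversed to -0.14 against saline 3 and to -0.04 without saline 203, and leaving out 1 library gave -0.035 to 0.220. With 1 library left out the Chrm1 to Chrm2 difference was 0.640 to 0.902 and that of Chrna7 to Chrna4 was 0.290 to 0.462; both passed without saline 302 (0.902, adjusted p = 0.0317, and 0.456, adjusted p = 0.0476, by exact permutation). No paired analysis was possible because the labels give AC-T and saline mice no shared replicate numbers. The causes of these shifts were not tested. Chrm4 had the fewest counts (74 to 218 a library) and the widest SE (0.17); Chrm2 (251 to 599 counts, SE 0.15) and Chrna7 (262 to 405 counts, SE 0.087) had like counts and unlike SE.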
